A study of Ogataea parapolymorpha with 16 samples.

Results

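Slower growth was compared with faster growth in glucose-limited chemostat cultures of the yeast Ogataea parapolymorpha, at dilution rates of 0.025 and 0.1 per h. All 4 chemostat cultures at 0.025 per h were set against all 4 at 0.1 per h, with strain as a factor, which took in 8 of the 16 samples of the series and, of the 5400 genes with a value, the 5004 that passed a filter on low levels. At each dilution rate there were 2 independent cultures of CBS11895, the wild type, and 2 of IMD010, a strain made from CBS11895 by a CRISPR/Cas9 frameshift in NUBM, which encodes the NADH-binding subunit of respiratory complex I. IMD010 is 1 clone. The cultures of all 4 groups were aerobic, were run at 30°C and pH 5.0 on synthetic medium with 7.5 g of glucose per liter, and were frozen in liquid nitrogen for extraction of mRNA. The working volume was 1.0 liter at 0.025 per h and 1.4 liters at 0.1 per h, so that volume and dilution rate cannot be told apart.

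In a chemostat, fresh medium is pumped in as fast as culture is withdrawn, and at steady state cells divide at the rate set by the pump. With glucose as the limiting nutrient, a lower dilution rate means less residual glucose and a longer cell cycle, in which yeasts are known to spend the added time mostly before DNA replication. In Saccharomyces cerevisiae, transcripts for ribosomes and biosynthesis are known to increase with growth rate, while many transcripts for stress defence and for the use of other carbon sources decrease. O. parapolymorpha is a methylotrophic, respiring yeast that holds both the proton-pumping complex I and alternative NADH dehydrogenases that pump no protons.

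The 8 libraries held 17272957 to 20713290 reads, of which 0.111 to 0.273% came from rRNA genes. Levels are given as TMM-normalized FPKM, that is fragments per kilobase of gene relative to the size of the library, scaled by the trimmed mean of M values between libraries. Culture 1 of IMD010 at 0.1 per h stood apart from the other 7 before any comparison of rates. Its levels correlated with those of the other libraries at r = 0.777 to 0.885 across genes, against 0.932 to 0.998 among the others, and 110 genes differed by more than 2 on the log2 scale between it and its replicate, against 0 to 4 in the other pairs. Results are therefore given also without this library for the counts of genes, for most of the lists and for some of the named genes. Other named values are those of all 8 cultures, and their size can differ without this library. Of the 120 named genes called with all cultures, 0 lost the call without it. The NUBM frameshift leaves the transcript in place, so that NUBM levels do not check the strain labels.

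Transcript levels of 885 genes were higher and those of 1001 genes were lower at 0.025 than at 0.1 per h, at a false-discovery rate (FDR, limma with Benjamini-Hochberg adjustment) below 0.05. These 1886 genes were 37.7% of the 5004 tested, with 17.7% higher and 20.0% lower. Without culture 1 of IMD010 at 0.1 per h, 1779 genes were higher and 1738 lower, or 70.3% of the genes. All 885 and all 1001 genes called with 8 cultures were called in the same direction without this library, and a further 1631 genes were called without it. Leaving out any single other culture gave 1024 to 2433 calls. Most differences were small. The median absolute log2 fold change was 0.42 with 8 cultures and 0.33 with 7, and 275 genes were called with a rise and 210 with a fall of more than 1 on the log2 scale.

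Of the 5004 genes, 2308, or 46.1%, had all 4 cultures of one rate above all 4 of the other, 1144 with the slow cultures above and 1164 with the slow cultures below. At the stricter thresholds of the study, with log2 fold changes beyond 2 in either direction and FDR values below 0.001, 16 genes were higher and 10 lower, or 0.520% of the genes. Without the library that stood apart, these thresholds took 17 genes higher and 10 lower, and 18 genes were shared between both sets. It was 0 to 3 genes when any culture of CBS11895 or any slow culture of IMD010 was left out. The median log2 fold change of all genes was 0.01. Without TMM factors it shifted to -0.11, and 515 genes were then higher and 1494 lower, so that small differences in either direction are relative to the bulk of the transcripts.

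Short genes lay on the slow side. Of the 802 genes of at most 600 bp, 334 were higher and 44 lower at 0.025 per h, with a median log2 fold change of 0.53. In the genes over 600 and up to 1200 bp, 343 were higher and 298 lower, with a median of 0.06. The 1906 genes over 1200 and up to 2400 bp had 184 higher and 497 lower, with a median of -0.13, and the 538 longer genes had 24 higher and 162 lower, with a median of -0.22. The genes called higher had a median length of 762 bp and those called lower of 1497 bp, against 1173 bp for all genes. In CBS11895 alone the median of the genes up to 600 bp was 0.43, and in IMD010 without the library that stood apart it was 0.32. For the lists that it moves most, and for some of the genes, values are also given after removal of a smooth trend on length from each library. All other values, those of short named genes among them, include the trend. The cause of the trend was not tested.

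**Figure D1:**
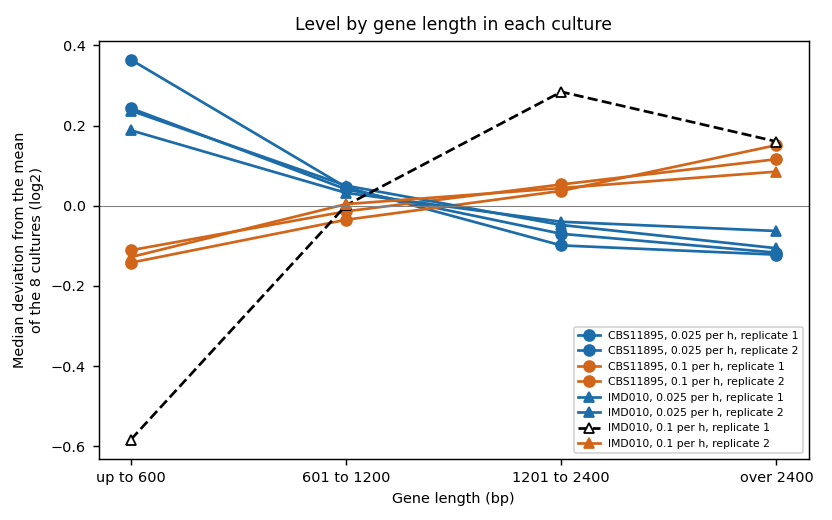
Median log2 deviation of the transcript level from the mean of the 8 chemostat cultures (y axis) in 4 classes of gene length in bp (x axis), with 1 line for each culture. The 4 cultures at 0.025 per h lie at 0.19 to 0.36 for genes of at most 600 bp, the 3 other cultures at 0.1 per h at -0.11 to -0.14, and culture 1 of IMD010 at 0.1 per h at -0.58.

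The 100 genes with the largest rises among those called without overlap of the cultures had a median length of 432 bp, and 65 of them were no longer than 600 bp. Their median level was 494 FPKM at 0.025 per h and 142 at 0.1 per h. The 100 with the largest falls had a median length of 1483.5 bp, with 2 of at most 600 bp, and median levels of 16.1 and 43.8 FPKM. These sets were taken by the size of the change, so the levels are a description. Calls were found on all 7 chromosomes, with 12.6% of the genes higher on chromosome I and 21.9% on chromosome VI, and 14.5% lower on chromosome VI and 28.1% on chromosome I.

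Among the genes with the largest rises, most have no product name in the tables used here and are given by their locus tag. In the sentences that follow, values of 2 cultures stand in the order of replicates 1 and 2. HPODL_01151 (chromosome VI, 104164 to 107079 in the CBS11895 assembly), a hypothetical protein, had 282 and 225 FPKM in CBS11895 and 225 and 274 in IMD010 at 0.025 per h, against 10.6 and 11.1 in CBS11895 and 51.2 and 32.9 in IMD010 at 0.1 per h. All slow cultures were above all fast cultures, and among the fast ones both of IMD010 were above both of CBS11895. The log2 fold change of this gene was 3.49 ± 0.37 (SE; FDR = 0.000811), an 11.3-fold difference, and 3.80 without culture 1 of IMD010 at 0.1 per h.

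HPODL_03194 (chromosome VII, 1427802 to 1428224) was at 4714 and 4421 FPKM in CBS11895 and 4062 and 4587 in IMD010 at 0.025 per h, and at 341 and 351 in CBS11895 and 409 and 535 in IMD010 at 0.1 per h. In each strain it was thus among the abundant transcripts at the lower rate. Its log2 fold change was 3.46 ± 0.15 (FDR = 6.77e-05), and 3.43 without the library that stood apart. With the length trend removed as well, the value was 3.03.

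The smallest FDR of all genes, 4.04e-05, was that of HPODL_04459 (chromosome V, 1214646 to 1215085). This transcript had 2547 and 2982 FPKM in CBS11895 and 1365 and 1477 in IMD010 at 0.025 per h, and 406 and 417 in CBS11895 and 224 and 222 in IMD010 at 0.1 per h. At either rate IMD010 had the lower level, and the change with rate was 2.74 in CBS11895 and 2.67 in IMD010 on the log2 scale. HPODL_05210 (chromosome IV, 962186 to 962444) rose by 2.73 ± 0.13 (FDR = 0.000108), from 707 to 1564 FPKM in the 4 fast cultures to 4944 to 12044 in the slow ones. Both genes are short, and the sizes given for them include the length trend.

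HPODL_00285 (chromosome III, 222632 to 223363) is annotated as the stress protein DDR48, named in S. cerevisiae for its induction by DNA damage. It was at 763 and 1417 FPKM in CBS11895 and 427 and 580 in IMD010 at 0.025 per h, and at 185 and 170 in CBS11895 and 44.1 and 75.9 in IMD010 at 0.1 per h. The groups did not overlap, and IMD010 was below CBS11895 at each rate. On the log2 scale the rise was 2.81 ± 0.26 (FDR = 0.000514), and 2.61 without the library that stood apart.

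In 3 more leading genes, all of them short, that library decided part of the size. HPODL_01406 (chromosome VI, 522764 to 523138) was at 465 to 743 FPKM in the slow cultures and at 133, 131 and 143 in 3 of the fast ones, with 29.3 in culture 1 of IMD010. The log2 fold change of 2.66 ± 0.43 (FDR = 0.00392) was 2.15 without that culture and 1.39 with the length trend removed as well. HPODL_05007 (chromosome II, 882781 to 883044) had 2.59 ± 0.32 (FDR = 0.00139) and HPODL_05295 (chromosome VI, 593150 to 593495) 2.56 ± 0.24 (FDR = 0.000502). Without the library these 2 genes had 2.34 and 2.30, and with the length trend removed as well 1.59 and 1.47.

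Of the leading rises with a product name, the largest after DDR48 was that of a tannase, an esterase (HPODL_00160, chromosome III, 8988 to 10688). It had 34.2 and 56.4 FPKM in CBS11895 and 15.1 and 21.2 in IMD010 at 0.025 per h, against 4.91 to 6.36 in the 4 cultures at 0.1 per h (2.16 ± 0.27 on the log2 scale, FDR = 0.00139). Sulfiredoxin (HPODL_00698, chromosome III, 956855 to 957220), which reduces overoxidized peroxiredoxins, was at 112 to 136 FPKM in the slow cultures and at 45.3, 46.1 and 44.7 in 3 fast ones, with 10.9 in culture 1 of IMD010. The rise was 1.93 ± 0.41 (FDR = 0.00995) and 1.45 without that culture (FDR = 2.00e-06). The transcript of SSS1 (HPODL_01583), a subunit of the channel through which proteins enter the endoplasmic reticulum, rose by 1.90 ± 0.14 (FDR = 0.000237), from 455 to 492 FPKM in the fast cultures to 1377 to 2336 in the slow ones.

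A protein annotated as an ATPase-stabilizing factor (HPODL_03065), which in S. cerevisiae acts on the inhibited mitochondrial ATP synthase, was the most abundant of the named rises. Its level was 17419 and 17466 FPKM in CBS11895 and 11625 and 11241 in IMD010 at 0.025 per h, and 5874 and 5974 in CBS11895 and 836 and 4183 in IMD010 at 0.1 per h. The difference was 2.08 ± 0.47 (FDR = 0.0128) with all cultures and 1.51 without culture 1 of IMD010 at 0.1 per h. A yippee protein (HPODL_00391; 1.78 ± 0.12, FDR = 0.000209), a subunit of the cytochrome b-c1 complex, which is respiratory complex III (HPODL_03751; 1.75 ± 0.28, FDR = 0.00346), and a putative membrane protein (HPODL_01995; 1.75 ± 0.39, FDR = 0.0117) were also higher. Without the library their values were 1.71, 1.45 and 1.29.

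**Figure D2:**
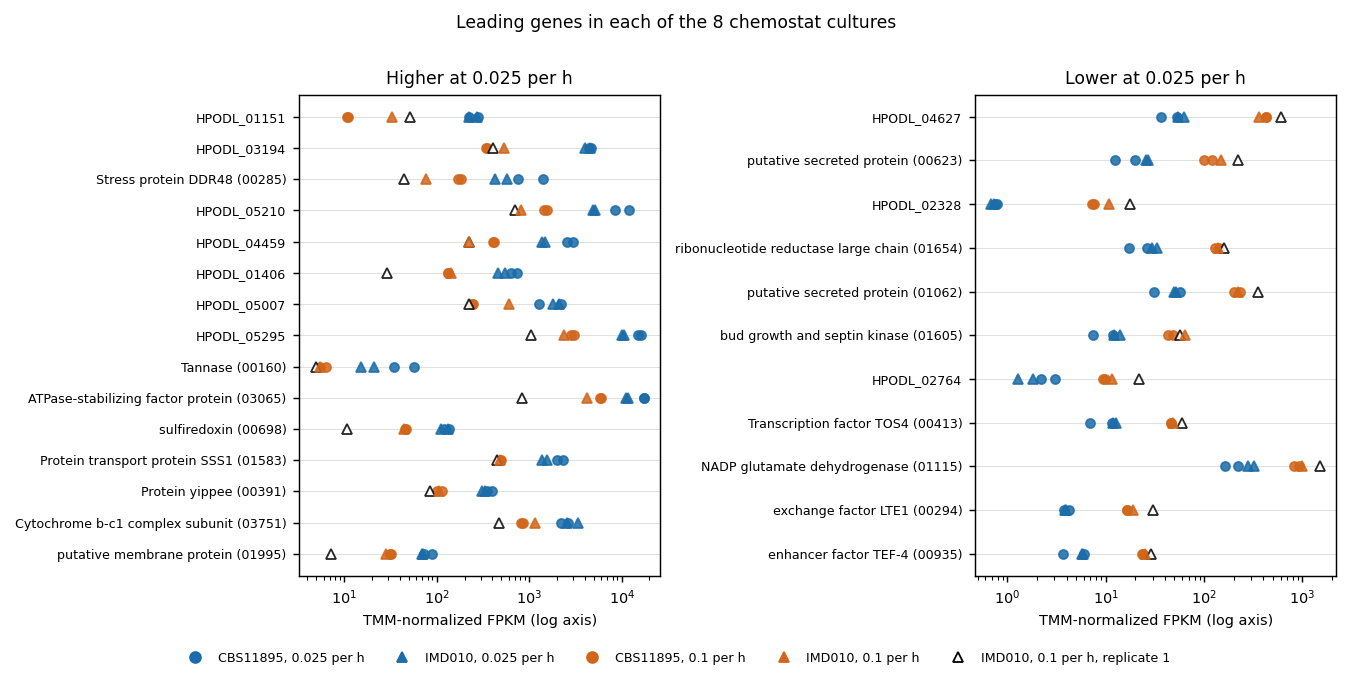
TMM-normalized FPKM (x axes, log scale) of the genes with the largest rises (left) and falls (right) at 0.025 per h, with 1 point for each of the 8 cultures and genes in order of their log2 fold change. Blue points are the slow and orange points the fast cultures, and the open triangle, culture 1 of IMD010 at 0.1 per h, lies below the other fast cultures for HPODL_01406, HPODL_00698 and HPODL_01995.

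The largest fall was that of HPODL_04627 (chromosome II, 176040 to 177611). It had 52.5 and 36.5 FPKM in CBS11895 and 54.8 and 62.4 in IMD010 at 0.025 per h, against 424 and 422 in CBS11895 and 611 and 359 in IMD010 at 0.1 per h. All slow cultures lay far below all fast cultures in both strains, and the log2 fold change was -3.11 ± 0.20 (FDR = 0.000209), 8.64-fold lower at the slow rate. HPODL_02328 (chromosome I, 853397 to 854980) was a low transcript at 0.025 per h, with 0.691 to 0.777 FPKM in the 4 cultures, and had 7.27 to 17.8 FPKM at 0.1 per h. For such a low gene the log2 fold change of -2.69 ± 0.22 (FDR = 0.00032) understates the change in level, since 1 was added to each value before taking logarithms.

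HPODL_00623 (chromosome III, 816264 to 817118), annotated as a putative secreted protein, had 12.5 and 19.8 FPKM in CBS11895 and 25.8 and 26.7 in IMD010 at 0.025 per h, and 121 and 99.1 in CBS11895 and 221 and 150 in IMD010 at 0.1 per h (-2.73 ± 0.18 on the log2 scale, FDR = 0.000209). HPODL_01062 (chromosome IV, 313162 to 314292), with the same annotation, changed by -2.39 ± 0.22 (FDR = 0.000474). HPODL_02764 (chromosome VII, 691295 to 692179), for which the tables gave no product, changed by -2.15 ± 0.29 (FDR = 0.00178), and without the library that stood apart by -1.86.

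Several of the other named falls were those of genes of the division cycle. The large chain of ribonucleoside-diphosphate reductase (HPODL_01654, chromosome VI, 916386 to 918974), which makes the deoxyribonucleotides for DNA synthesis, was at 17.1 and 26.4 FPKM in CBS11895 and 29.6 and 33.0 in IMD010 at 0.025 per h. At 0.1 per h it was at 142 and 128 in CBS11895 and 158 and 140 in IMD010. Slow and fast cultures were far apart in both strains, with a log2 fold change of -2.41 ± 0.16 (FDR = 0.000209) and a 5.31-fold lower level at the slow rate. A kinase of bud growth and septin ring assembly (HPODL_01605, chromosome VI, 842007 to 845159) fell by 2.15 ± 0.15 on the log2 scale (FDR = 0.000213), from 43.2 to 63.3 FPKM in the fast cultures to 7.44 to 14.0 in the slow ones.

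TOS4 (HPODL_00413, chromosome III, 429545 to 430807), in S. cerevisiae a transcription factor expressed at the start of the cell cycle, changed by -2.14 ± 0.17 (FDR = 0.000291). The exchange factor LTE1 (HPODL_00294, chromosome III, 235477 to 238362), which promotes exit from mitosis in S. cerevisiae, had 3.75 to 4.25 FPKM in the slow cultures and 16.5 to 30.3 in the fast ones, a log2 fold change of -2.09 ± 0.18 (FDR = 0.000392). A gene annotated as transcriptional enhancer factor TEF-4 (HPODL_00935, chromosome IV, 81071 to 82702) changed by -2.05 ± 0.14 (FDR = 0.000213). In whole cultures, a smaller share of cells in a phase of the division cycle and less transcript per cell in that phase cannot be told apart.

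The remaining genes were read in lists by words in the product names. Product names were at hand for 1340 of the 5004 genes tested, so the lists are incomplete. Counts with all cultures are to be read against 17.7% higher and 20.0% lower over all genes. Those without the library that stood apart are to be read against 1779 higher and 1738 lower of the 5004 genes. With the length trend removed, 805 genes were higher and 940 lower with all cultures, and 1750 and 1696 without that library. No test was run on a list. The DNA replication list had 15 members tested, of which 10 were lower and 0 higher at 0.025 per h. In all 10 the 4 slow cultures lay below the 4 fast ones, as they did in 889 of the 1001 genes called lower. Over all 5004 genes tested, called or not, 1164 had the slow cultures below. Its median log2 fold change of -0.81 was the lowest of the lists with more than 1 member, against 0.01 for all genes. Without the library that stood apart, 13 were lower and the median was -0.76, and with the length trend removed as well it was -0.63.

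Within this list, the small subunit of DNA primase (HPODL_00382), which starts new strands, had 13.2 and 23.3 FPKM in CBS11895 and 20.3 and 21.8 in IMD010 at 0.025 per h, against 57.6 and 52.3 in CBS11895 and 67.2 and 56.0 in IMD010 at 0.1 per h (log2 fold change -1.55 ± 0.18, FDR = 0.00101). Replication factor C subunit 3 (HPODL_02081), part of the clamp loader, changed by -1.45 ± 0.18 (FDR = 0.00129). A replication initiation factor (HPODL_00535) changed by -1.28 ± 0.13 (FDR = 0.00072), and the helicase subunit MCM4 (HPODL_00647) by -1.11 ± 0.19 (FDR = 0.00458). The primase values show the pattern of these members, with no culture of either strain out of place.

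Of the 8 histone genes, 2 were higher and 3 lower, with a median of 0.18. Their median length was 396 bp, and with the length trend removed 0 were higher and 4 lower, with a median of -0.40, and without the library as well 0 were higher and 6 lower, with a median of -0.56. The values that follow are those with the trend in place. One histone H2B gene (HPODL_00353) had 1187 and 2218 FPKM in CBS11895 and 1529 and 1533 in IMD010 at 0.025 per h, and 4568 and 4089 in CBS11895 and 2475 and 3799 in IMD010 at 0.1 per h (-1.21 ± 0.23 on the log2 scale, FDR = 0.00719). The other H2B gene (HPODL_00515) went the opposite way, at 5131 to 7584 FPKM in the slow cultures and 1778 to 3861 in the fast ones, with 0.91 ± 0.23 (FDR = 0.0203). Of the histone H3 genes annotated as H3.1/H3.2, HPODL_01324 was lower (-1.01 ± 0.22, FDR = 0.0124) and HPODL_01891 higher (0.58 ± 0.15, FDR = 0.0198). Histone H2A (HPODL_00354) was lower (-0.73 ± 0.22, FDR = 0.0336).

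Both histone H4 genes and 1 more H3 gene were not called. HPODL_01892 had 6859 to 10553 FPKM in the slow cultures and 6787, 7137 and 6291 in 3 fast ones, but 1116 in culture 1 of IMD010 at 0.1 per h. Its log2 fold change of 1.02 ± 0.50 (FDR = 0.138) was 0.43 without that culture (FDR = 0.00291). The other H4 gene (HPODL_01325) was at 6418 to 14237 FPKM in the slow cultures and at 2179 to 12249 in the fast ones (0.29 ± 0.43, FDR = 0.616), and the H3 gene HPODL_01931 changed by 0.06 ± 0.11 (FDR = 0.671). Reads that fit more than 1 place were removed by the authors, so the levels of near-identical histone genes are uncertain.

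For mitosis, cyclins and the cytoskeleton, 4 of 25 members were higher and 7 lower, with a median of -0.20, and without the library 5 were higher and 15 lower. Besides the septin kinase, the falls included a kinesin heavy chain (HPODL_00616; -1.34 ± 0.23, FDR = 0.00456), a motor of microtubules, and the cohesin subunit rad21 (HPODL_01664; -1.25 ± 0.15, FDR = 0.00134), which holds sister chromatids together. The suppressor of kinetochore protein 1 (HPODL_00458), in S. cerevisiae a subunit of ubiquitin ligases and of the kinetochore, was higher, at 761 to 946 FPKM in the slow cultures and 449 to 484 in the fast ones (0.87 ± 0.09, FDR = 0.000896).

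Genes of amino acid synthesis fell more often than they rose at 0.025 per h. In the amino acid biosynthesis list, 13 of 24 members tested were lower and 3 higher, with a median of -0.58, and without the library 15 were lower and 5 higher, with a median of -0.44. NADP-specific glutamate dehydrogenase (HPODL_01115, chromosome VI, 39145 to 40524), which fixes ammonium into glutamate, fell the most of this list. It was at 219 and 163 FPKM in CBS11895 and 325 and 282 in IMD010 at 0.025 per h, and at 921 and 820 in CBS11895 and 1506 and 984 in IMD010 at 0.1 per h (-2.10 ± 0.17 on the log2 scale, FDR = 0.000324), or 4.29-fold lower at the slow rate.

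Glutamate synthase (HPODL_00613), the other route of ammonium into glutamate, had 67.4 and 69.2 FPKM in CBS11895 and 94.8 and 93.4 in IMD010 at 0.025 per h, and 173 and 153 in CBS11895 and 215 and 185 in IMD010 at 0.1 per h. The change was -1.16 ± 0.11 (FDR = 0.000474). Homoaconitase (HPODL_02077), of lysine synthesis, changed by the same amount (-1.16 ± 0.13, FDR = 0.00101). Against this direction, prephenate dehydratase of phenylalanine synthesis (HPODL_01379) was at 67.7 to 95.1 FPKM in the slow cultures and at 15.7 to 49.8 in the fast ones, with 1.12 ± 0.29 (FDR = 0.0216).

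Uptake of nitrogen compounds was mixed. Of 28 transporters 18 passed the filter on levels, and 2 of these were higher and 6 lower, with a median of -0.32. Without the library 7 were higher and 8 lower, and the median was -0.06, which became 0.07, with 9 higher and 6 lower, once the length trend was removed as well. The ammonium transporter MEP1 (HPODL_00379) had 49.3 and 31.6 FPKM in CBS11895 and 59.6 and 55.1 in IMD010 at 0.025 per h, against 121 and 107 in CBS11895 and 221 and 129 in IMD010 at 0.1 per h (-1.52 ± 0.21, FDR = 0.0018). Permeases for GABA (HPODL_00268; -1.38 ± 0.22, FDR = 0.00374, and -1.14 without the library) and for uric acid and xanthine (HPODL_01923; 9.05 to 10.8 FPKM against 13.8 to 43.8, FDR = 0.0259) fell with it. The proline permease put4 (HPODL_01140) was higher, at 103 to 207 FPKM against 41.4 to 101 (1.14 ± 0.31, FDR = 0.0234).

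The list of nucleotide synthesis, which includes the large chain of ribonucleotide reductase, had 1 of 11 members higher and 3 lower, with a median of -0.22. Without the library 3 were higher and 6 lower. Adenylosuccinate synthetase (HPODL_01444), of AMP synthesis, had 237 and 242 FPKM in CBS11895 and 353 and 296 in IMD010 at 0.025 per h, and 587 to 691 in the 4 cultures at 0.1 per h (-1.18 ± 0.11, FDR = 0.000463). Besides the reductase, GMP synthase (HPODL_01739) was lower (-0.71 ± 0.18, FDR = 0.0181) and phosphoribosylglycinamide formyltransferase (HPODL_00691) higher (1.01 ± 0.24, FDR = 0.0162).

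The cytosolic ribosomal protein genes were not lower as a group at the slow rate. Of 29 members 10 were higher and 3 lower, with a median log2 fold change of 0.44, and without the library 18 were higher and 4 lower, with a median of 0.37. Their median length was 525 bp, and with the length trend removed in addition 8 were higher and 11 lower, with a median of 0.02. The direction of the group thus depended on the length trend. Ribosomal protein S13 (HPODL_00785) was at 2169 to 2799 FPKM in the slow cultures and 1202 to 1445 in the fast ones (0.88 ± 0.09, FDR = 0.000755) and kept 0.81 with the trend removed. The ubiquitin-L40 fusion (HPODL_01195; 1.04 ± 0.19, FDR = 0.00656) had 0.37 with the trend removed, while S20 (HPODL_00310; 0.97 ± 0.31, FDR = 0.0396) and S26 (HPODL_01290; 0.92 ± 0.29, FDR = 0.0418) had 0.62 and 0.58 without the library and 0.05 and 0.06 with the trend removed as well.

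Ribosome biogenesis and RNA polymerases I and III had 6 of 48 members tested higher and 1 lower, with a median of 0.24. Without the library 18 were higher and 17 lower, and the median turned to -0.06. A protein of rRNA processing (HPODL_01534; 1.11 ± 0.21, FDR = 0.00656) and the biogenesis factors NIP7 (HPODL_00202; 1.11 ± 0.36, FDR = 0.0448), UTP30 (HPODL_01564; 0.94 ± 0.29, FDR = 0.0386) and ribosome assembly protein 3 (HPODL_01879; 0.82 ± 0.17, FDR = 0.00913) were higher, with 0.88, 0.68, 0.61 and 0.65 in turn without the library. Among mitochondrial ribosomal proteins 5 of 20 were lower and 0 higher, led by MRPL1 (HPODL_01921), at 23.9 to 37.5 FPKM in the slow cultures against 51.6 to 121 in the fast ones (-1.16 ± 0.18, FDR = 0.00339). The median of this list was 0.01. Without the library 3 were higher and 10 lower, with a median of -0.15, and with the length trend removed as well 0 were higher and 12 lower, with a median of -0.29.

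The aminoacyl-tRNA synthetases charge tRNAs with their amino acids. Of 19 such genes 6 were lower and 1 higher, with a median of -0.32, and without the library 12 were lower and 1 higher. With the length trend removed as well 7 were lower and 2 higher. The mitochondrial lysine-tRNA synthetase (HPODL_01924) had the largest fall (-1.21 ± 0.16, FDR = 0.00182), followed by the beta subunit of the phenylalanine-tRNA ligase (HPODL_00119; -0.78 ± 0.22, FDR = 0.027, and -0.55 without the library). Of the 20 translation factors 2 were higher and 6 lower, with a median of -0.13, and without the library 5 were higher and 9 lower. Initiation factor 4B (HPODL_00788) was at 62.0 and 59.0 FPKM in CBS11895 and 84.5 and 79.3 in IMD010 at 0.025 per h, below all cultures at 0.1 per h (-0.98 ± 0.10, FDR = 0.000606). Initiation factor 4E, which binds the mRNA cap (HPODL_01394), was higher (0.92 ± 0.22, FDR = 0.0151).

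**Figure D3:**
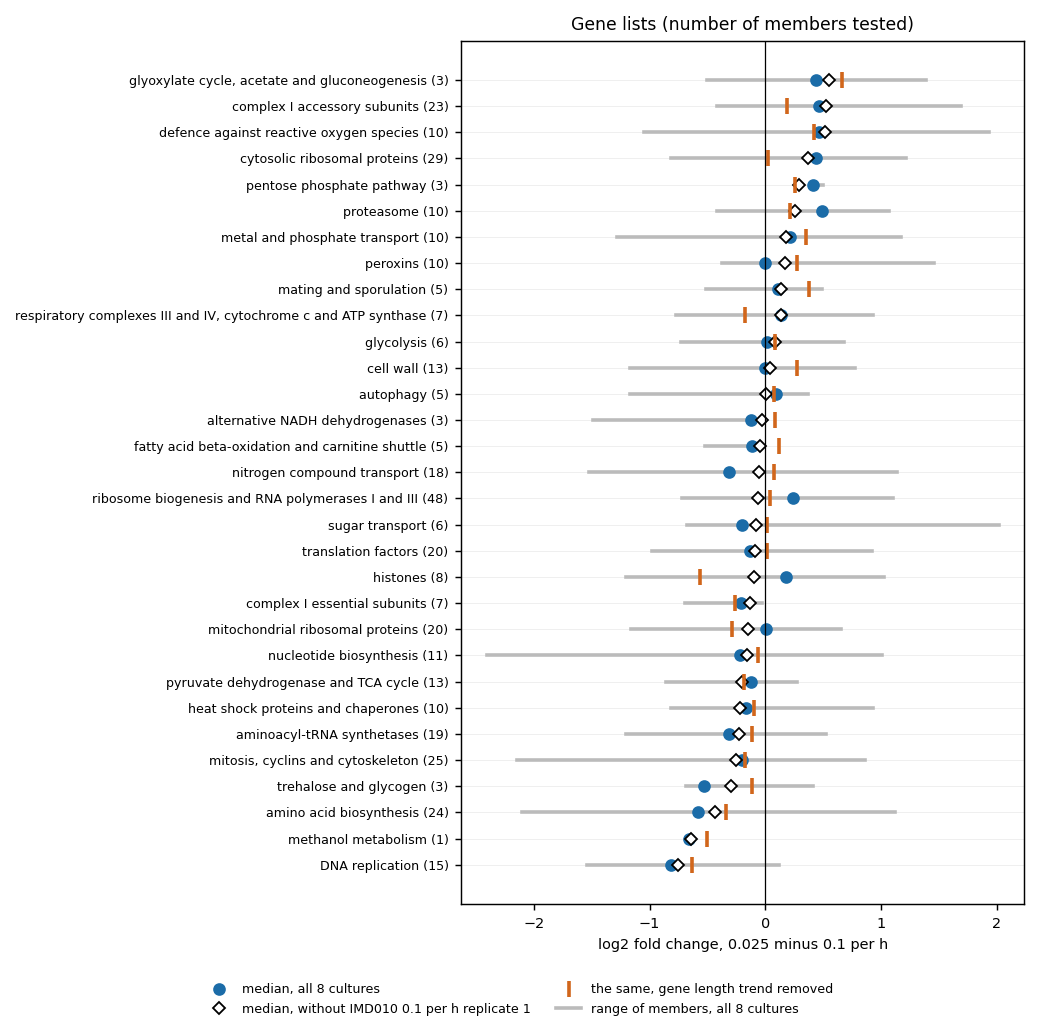
Median log2 fold change, 0.025 minus 0.1 per h (x axis), of each gene list (y axis, number of members tested in parentheses), with all 8 cultures (filled circles), without culture 1 of IMD010 at 0.1 per h (open diamonds) and with the length trend removed as well (orange bars). Gray lines are the range of the members, which crosses 0 in most lists, and DNA replication, with 10 of 15 members lower, lies at the low end.

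In central carbon metabolism, the clearest rise was that of isocitrate lyase (HPODL_00142), the entry enzyme of the glyoxylate cycle, which is used for growth on carbon compounds smaller than sugars. It had 81.2 and 62.3 FPKM in CBS11895 and 66.7 and 61.7 in IMD010 at 0.025 per h, and 30.8 and 29.9 in CBS11895 and 23.5 and 18.5 in IMD010 at 0.1 per h (1.39 ± 0.15 on the log2 scale, FDR = 0.000755), or 2.62-fold higher at the slow rate. Malate synthase (HPODL_01838), the next enzyme of that cycle, was at 154 to 183 FPKM in the slow cultures and 106 to 147 in the fast ones (0.44 ± 0.14, FDR = 0.0378). Phosphoenolpyruvate carboxykinase (HPODL_00509), of gluconeogenesis, was the third member tested of this list and was not called (-0.50 ± 0.22, FDR = 0.104), while the fourth member was below the filter.

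Glycolysis had 3 of 6 members higher and 2 lower, with a median of 0.01. A 6-phosphofructokinase subunit (HPODL_00776), of the committed step, was at 40.6 to 57.0 FPKM in the slow cultures and 70.3 to 90.9 in the fast ones (-0.73 ± 0.10, FDR = 0.0016), and the beta subunit (HPODL_01506) was lower too (-0.56 ± 0.14, FDR = 0.0168). Glucose-6-phosphate isomerase (HPODL_01256; 0.50 ± 0.09, FDR = 0.00617) and both phosphoglycerate mutases (HPODL_01332, 0.68 ± 0.13, FDR = 0.00622; HPODL_00350, 0.38 ± 0.10, FDR = 0.0216) were higher, and pyruvate kinase (HPODL_01513) was not called (-0.35 ± 0.17, FDR = 0.127). In the pentose phosphate pathway, 2 of 3 members were higher and 0 lower. These were 6-phosphogluconolactonase (HPODL_01158; 0.50 ± 0.11, FDR = 0.0105) and a transaldolase (HPODL_02007; 0.41 ± 0.14, FDR = 0.0487), while the neighboring transaldolase gene (HPODL_02008) was at 0.41 ± 0.35 (FDR = 0.369). If these neighbors are near-identical, the removal of ambiguous reads leaves their levels uncertain.

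For pyruvate dehydrogenase and the tricarboxylic acid cycle, 4 of 13 members were lower and 0 higher, with a median of -0.12, and without the library 7 were lower and 1 higher. Mitochondrial malate dehydrogenase (HPODL_00710) had 349 and 442 FPKM in CBS11895 and 690 and 646 in IMD010 at 0.025 per h, and 664 and 623 in CBS11895 and 1825 and 994 in IMD010 at 0.1 per h (-0.86 ± 0.20, FDR = 0.0144). The slow IMD010 cultures thus lay at the level of the fast CBS11895 cultures, and the rates overlapped across strains though not within them. Fumarate hydratase (HPODL_00724; -0.45 ± 0.14, FDR = 0.0377), succinyl-CoA ligase (HPODL_02040; -0.44 ± 0.12, FDR = 0.022) and the alpha subunit of pyruvate dehydrogenase (HPODL_00436; -0.43 ± 0.11, FDR = 0.0217) were lower.

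The glucose transporter annotated as low-affinity HXT3 (HPODL_00453, chromosome III, 514709 to 516337) was the member of the sugar transport list with the largest change. It had 56.5 and 80.7 FPKM in CBS11895 and 131 and 462 in IMD010 at 0.025 per h, against 22.6 and 13.5 in CBS11895 and 60.8 and 49.1 in IMD010 at 0.1 per h. IMD010 was above CBS11895 at each rate, and 1 slow CBS11895 culture was below 1 fast IMD010 culture. The difference was 2.02 ± 0.38 (FDR = 0.00682) and 2.05 without the library. Of the 6 members tested, 1 other was called, a sugar porter that was lower (HPODL_00010; -0.66 ± 0.22, FDR = 0.0455, and -0.42 without the library). Storage carbohydrates gave 3 members, with glycogen phosphorylase (HPODL_01450) higher (0.41 ± 0.13, FDR = 0.0451), the phosphatase of trehalose synthesis (HPODL_01643) lower (-0.69 ± 0.14, FDR = 0.00911), and a member named only as glycogen (HPODL_00566) not called (-0.53 ± 0.22, FDR = 0.0856).

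NADH enters the respiratory chain through complex I or the alternative NADH dehydrogenases. Of the 7 essential subunits of complex I measured, NUBM (HPODL_04625, chromosome II, 171646 to 173112) and NUCM (HPODL_01297) were lower and 0 were higher at 0.025 per h. NUBM was at 191 and 206 FPKM in CBS11895 and 287 and 269 in IMD010 at 0.025 per h, and at 334 and 324 in CBS11895 and 441 and 439 in IMD010 at 0.1 per h (-0.69 ± 0.09, FDR = 0.00177). The change was -0.66 for the mutated gene in IMD010 and -0.73 for the intact gene in CBS11895. NUCM changed by -0.45 ± 0.15 (FDR = 0.0471).

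The 5 other essential subunits were not called, with log2 fold changes from -0.29 for NUGM (HPODL_03393) to -0.03 for NUKM (HPODL_02758), and with NUIM (HPODL_02101) at -0.21, NUAM (HPODL_03689) at -0.12 and NUHM (HPODL_01287) at -0.08. Without the library, the change was -0.30 for NUAM and 0.27 for NUKM, with the length trend in place. With the trend removed from all cultures, 1 of the 7 essential subunits was lower and 0 were higher, with a median of -0.367. Without the library as well the median was -0.265. Culture 1 of IMD010 at 0.1 per h had 1546 FPKM for NUGM and 1474 for NUKM, against 565 to 650 and 656 to 703 in the other fast cultures.

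The accessory subunits of complex I surround its catalytic core. Of 23 members 11 were higher and 0 lower, with a median of 0.47, and without the library 17 were higher and 0 lower, with a median of 0.53. NUUM (HPODL_05121) had 3941 and 4357 FPKM in CBS11895 and 3052 and 2818 in IMD010 at 0.025 per h, and 1157 and 1173 in CBS11895 and 850 and 1186 in IMD010 at 0.1 per h (1.69 ± 0.14 on the log2 scale, FDR = 0.000324). NI8M (HPODL_04214; 1.59 ± 0.13, FDR = 0.000374), N7BM (HPODL_02876; 1.11 ± 0.14, FDR = 0.00134) and NB4M (HPODL_02851; 0.98 ± 0.28, FDR = 0.0297) followed. The accessory subunits had a median length of 423 bp. With the length trend removed 4 were higher and 0 lower, with a median of -0.03, and without the library as well 9 were higher and 5 lower, with a median of 0.18. NI8M, at 867 bp above the median length of the list, then kept 1.49, while the values of NUUM, N7BM and NB4M given here include the length trend.

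Among the alternative NADH dehydrogenases, Ndh2-1 (HPODL_02792, chromosome VII, 732181 to 733794) was lower at the slow rate. It had 11.3 and 13.5 FPKM in CBS11895 and 45.3 and 38.2 in IMD010 at 0.025 per h, against 31.4 and 31.8 in CBS11895 and 173 and 108 in IMD010 at 0.1 per h. Within each strain the fast cultures were above the slow ones, while the slow IMD010 cultures lay above the fast CBS11895 cultures. The log2 fold change was -1.49 ± 0.18 (FDR = 0.00127), 2.81-fold lower, and -1.31 without the library. Ndh2-2 (HPODL_00256; 158 to 225 FPKM over all 8 cultures) and Ndh2-3 (HPODL_02018; 29.1 to 55.2 FPKM) were not called, at -0.13 ± 0.13 (FDR = 0.466) and -0.08 ± 0.19 (FDR = 0.747).

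**Figure D4:**
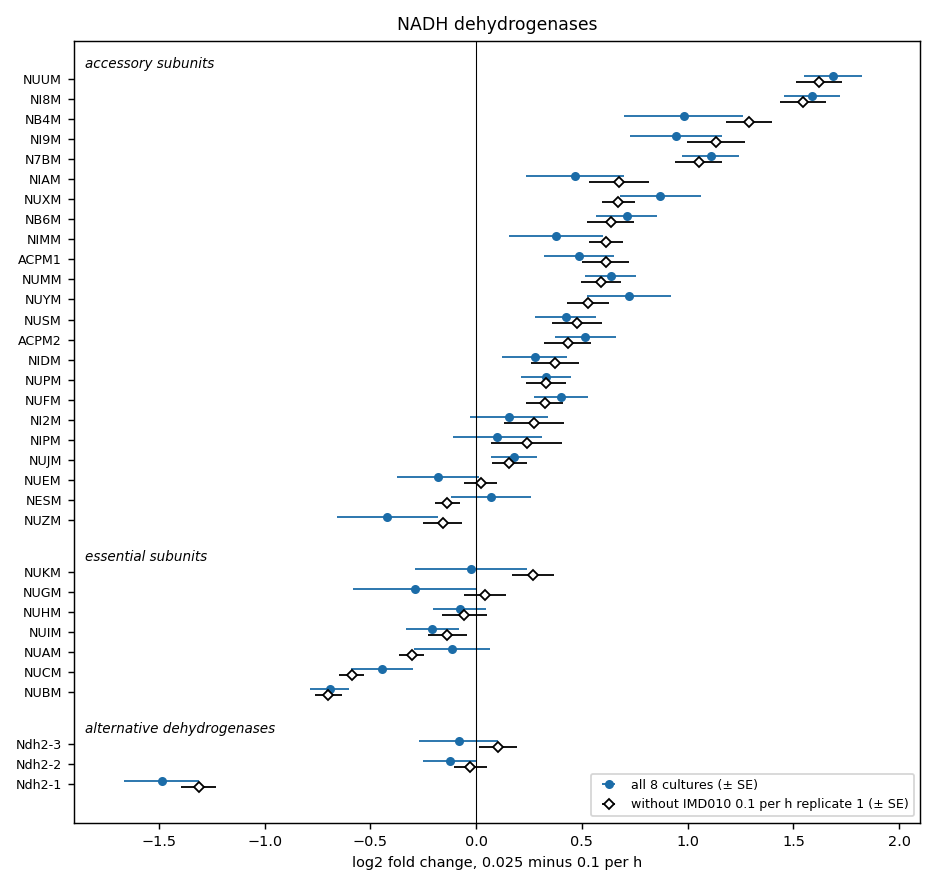
Log2 fold change, 0.025 minus 0.1 per h (x axis), of complex I subunits and alternative dehydrogenases (y axis), with SE, for all 8 cultures (filled circles) and without culture 1 of IMD010 at 0.1 per h (open diamonds). The accessory subunits reach 1.69, NUBM and NUCM lie at -0.69 and -0.45, and Ndh2-1 lies at -1.49.

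Complexes III and IV, cytochrome c and ATP synthase gave a list of 7 members, of which 1 was higher and 1 lower, with a median of 0.14. The cytochrome b-c1 subunit HPODL_03751, given above among the rises, was not in this list. With the length trend removed the median of the 7 was -0.14, and without the library as well 1 was higher and 4 lower, with a median of -0.18. The gamma subunit of ATP synthase (HPODL_00669) was higher (0.93 ± 0.25, FDR = 0.0228) and an epsilon subunit (HPODL_01937) lower (-0.78 ± 0.14, FDR = 0.00617). The 3 cytochrome c oxidase subunits measured lay at 0.14 to 0.66 and were not called. The beta subunit of ATP synthase (HPODL_01806), at 2543 to 3705 FPKM in the slow cultures and 2990 to 6578 in the fast ones, was not called either.

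Genes of defence against reactive oxygen species were higher for 5 of 10 members and lower for 2, with a median of 0.47, and without the library 6 were higher and 3 lower, with a median of 0.51. With the length trend removed from all cultures 4 were higher and 3 lower, with a median of 0.37. With the trend removed and without the library the median was 0.42. Thioredoxin-1 (HPODL_01485) had 3136 and 3589 FPKM in CBS11895 and 2292 and 2422 in IMD010 at 0.025 per h, and 1432 and 1382 in CBS11895 and 1228 and 1076 in IMD010 at 0.1 per h (1.14 ± 0.11, FDR = 0.000551). A superoxide dismutase (HPODL_01412) was at 5003 to 6502 FPKM in the slow cultures and 2728 to 2869 in the fast ones (0.99 ± 0.11, FDR = 0.000998). Slow and fast cultures were well apart for both genes.

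The peroxiredoxin TSA1 (HPODL_00527), which removes hydrogen peroxide, moved against sulfiredoxin and thioredoxin. It had 139 and 131 FPKM in CBS11895 and 320 and 282 in IMD010 at 0.025 per h, and 267 and 251 in CBS11895 and 898 and 508 in IMD010 at 0.1 per h (-1.05 ± 0.18, FDR = 0.00491). As for Ndh2-1, the slow IMD010 cultures lay above the fast CBS11895 cultures. The heat shock and chaperone list had 4 of 10 members lower and 0 higher, with a median of -0.17, led by a chaperone of the endoplasmic reticulum lumen (HPODL_01473; -0.82 ± 0.11, FDR = 0.0018). Without the library 5 were lower and 2 higher, and with the length trend removed from all cultures 2 were lower and 0 higher.

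Protein breakdown was split. In the proteasome list 4 of 10 members were higher and 2 lower, with a median of 0.49, and without the library 6 were higher and 4 lower, with a median of 0.26. The regulatory subunit rpn6 (HPODL_01702) was at 196 to 296 FPKM in the slow cultures and 141, 163 and 170 in 3 fast ones, with 41.8 in culture 1 of IMD010 at 0.1 per h. Its log2 fold change was 1.07 ± 0.35 (FDR = 0.0472), and 0.65 without that culture. Of 5 autophagy genes 1 was called, ATG21 (HPODL_01040), which was lower, at 6.17 to 10.1 FPKM against 13.9 to 32.3 (-1.17 ± 0.21, FDR = 0.00578). ATG25 (HPODL_01515), which acts in the breakdown of peroxisomes in methylotrophic yeast, had -0.65 ± 0.33 (FDR = 0.153) with all cultures and -1.04 without the library (FDR = 5.34e-06).

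Peroxisomes house the enzymes of methanol use and of fatty acid oxidation in this genus. Of 10 peroxins and peroxisomal membrane proteins 2 were higher and 0 lower, with a median of -0.00. Without the library 5 were higher and 2 lower, with a median of 0.17. PEX22 (HPODL_01386), which anchors a part of the import machinery, was at 400 to 661 FPKM in the slow cultures and 215, 232 and 261 in 3 fast ones, with 90.7 in culture 1 of IMD010 (1.46 ± 0.25, FDR = 0.00469, and 1.19 without that culture). PMP47B (HPODL_00941) was higher as well (0.79 ± 0.10, FDR = 0.00129). Dihydroxyacetone kinase (HPODL_01039), the 1 gene of methanol metabolism with a name, was lower (-0.66 ± 0.10, FDR = 0.00273). In fatty acid beta-oxidation and the carnitine shuttle, 2 of 5 members were lower and 0 higher, among them the multifunctional enzyme (HPODL_00315; -0.52 ± 0.12, FDR = 0.0115). With the length trend removed 0 of the 5 were called, with -0.30 for HPODL_00315, and without the library as well 2 were higher and 1 lower, with a median of 0.12.

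Transport of metals and phosphate had 2 of 10 members tested higher and 2 lower, with a median of 0.21, and without the library 5 were higher and 2 lower. The phosphate transporter PHO84 (HPODL_00500) had 9.45 to 17.9 FPKM in the 4 cultures at 0.025 per h, and 18.8 and 19.5 in CBS11895 and 80.7 and 44.1 in IMD010 at 0.1 per h (-1.29 ± 0.23, FDR = 0.00572). The slow IMD010 cultures, at 17.7 and 17.9 FPKM, were just below the fast CBS11895 cultures. A ferric and cupric reductase (HPODL_01387), which makes metals available for uptake, was higher, at 9.16 to 14.4 FPKM against 3.51 to 5.35 (1.17 ± 0.18, FDR = 0.00327). The iron oxidase FET3 (HPODL_01875; -0.91 ± 0.24, FDR = 0.0222) was lower and the zinc transporter 3 (HPODL_00182; 0.57 ± 0.10, FDR = 0.00457) higher.

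Of 13 cell wall genes tested 1 was higher and 4 were lower, with a median of -0.01. Without the library 5 were higher and 4 lower, and with the length trend removed as well 7 were higher and 4 lower. The mannoprotein HSP150 (HPODL_01142) was at 298 to 411 FPKM in the slow cultures and 647 to 1250 in the fast ones (-1.17 ± 0.24, FDR = 0.00863). Chitin synthase 1 (HPODL_00927), which in S. cerevisiae repairs the wall at cell separation, had 3.92 to 5.30 FPKM against 9.21 to 11.5 (-1.07 ± 0.13, FDR = 0.00131). The glucanosyltransferase GAS5 (HPODL_01343), which extends wall glucan, was lower as well (-0.96 ± 0.11, FDR = 0.00106). Words for mating and sporulation marked 7 genes as a check on other cell states, of which 5 passed the filter, 1 was higher and 0 were lower (HPODL_01880; 0.39 ± 0.10, FDR = 0.0158). Without the library 2 were higher and 2 lower.

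The rate effect was also read in each strain. In CBS11895, 469 genes, or 9.37%, were called, 245 higher and 224 lower. In IMD010 it was 699 genes, or 14.0%, 313 higher and 386 lower. Without culture 1 of IMD010 at 0.1 per h, 3247 genes were called in CBS11895, or 64.9%, and 2464 in IMD010, or 49.2%. The estimates for CBS11895 are the same in both fits, and the spread shared over the groups is what this library changed. IMD010 at 0.1 per h was left with 1 culture, which was assumed to vary like the cultures of the other groups. In fits of 1 strain with all of its 4 cultures, CBS11895 had 3029 calls and IMD010 had 0.

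Across the 5004 genes, the log2 fold changes of CBS11895 and IMD010, which share no culture, correlated at r = 0.788 (Spearman's rho 0.769), and without the library at r = 0.931 (rho 0.929). These are descriptions across genes, which are not independent, and both effects carry the length trend. Of the 3247 genes called in CBS11895 without the library, 3180, or 97.9%, had the same direction in IMD010. Of the same 3247 genes, 2299 were also called in IMD010 in the same direction and 4 in the opposite one. The shared calls were 70.8% of the calls in CBS11895 and 93.3% of those in IMD010. The calls of both strains came from the same fit, with a shared spread for each gene, so their overlap is not independent agreement. The share with the same direction is that of genes called in CBS11895 only. The SD of the log2 fold change across genes was 0.60 in CBS11895 and, without the library, 0.53 in IMD010.

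**Figure D5:**
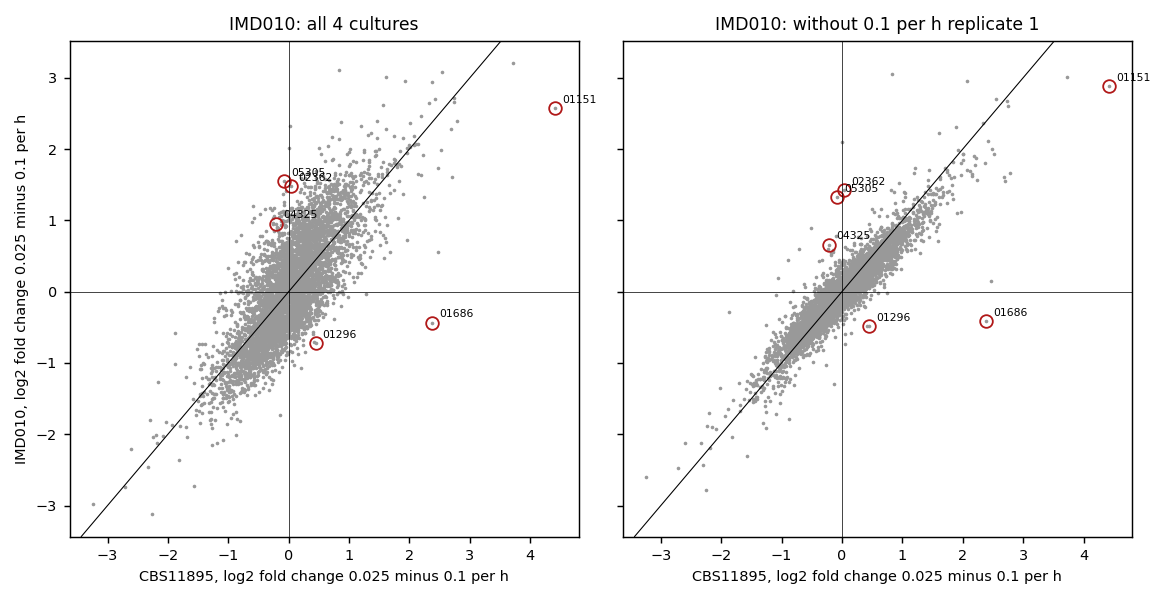
Log2 fold change, 0.025 minus 0.1 per h, of each of the 5004 genes in CBS11895 (x axes) and in IMD010 (y axes), with all 4 IMD010 cultures (left) and without culture 1 at 0.1 per h (right). The line marks equal changes, red circles mark the 6 genes with the smallest p-values for a difference between strains (last digits of the locus tags), and the points draw together from r = 0.788 to r = 0.931.

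Whether the rate effect differed between strains was tested with the interaction of strain and rate in limma. With all 8 cultures 0 genes were called at an FDR below 0.05, 47 had an unadjusted p-value below 0.05, and the smallest FDR was 0.764. Without culture 1 of IMD010 at 0.1 per h 0 genes were called, with 405 below 0.05 unadjusted and a smallest FDR of 0.278. When culture 2 of that group was left out in its place, so that the library that stood apart was the only IMD010 culture at 0.1 per h, 3456 genes were called. With 2 cultures per group a missed threshold does not show that the strains responded alike.

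The 6 genes named by the smallest p-values in either direction are described here as values, and none of them passed. A high-affinity potassium transporter (HPODL_01686, chromosome VI, 973725 to 976121) had 46.2 and 21.2 FPKM in CBS11895 at 0.025 per h, and 3.26 to 5.30 FPKM in the other 6 cultures. Its log2 fold change was 2.38 in CBS11895 and -0.44 in IMD010, a difference of -2.82 ± 0.47 (FDR = 0.764, and 0.358 without the library). HPODL_01151, described above for its rise, had 4.42 in CBS11895 and 2.57 in IMD010. Glycine dehydrogenase (HPODL_01296), of glycine breakdown, had 37.3 and 38.6 FPKM in CBS11895 and 26.4 and 28.3 in IMD010 at 0.025 per h, and 28.6 and 26.7 in CBS11895 and 53.9 and 38.7 in IMD010 at 0.1 per h, with changes of 0.44 and -0.72.

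In the opposite direction, HPODL_05305 (chromosome VI, 1045301 to 1046062) had 67.3 FPKM in culture 1 and more in culture 2 of IMD010 at 0.025 per h, and 21.9 to 30.7 FPKM in the other 6 cultures, with changes of -0.08 in CBS11895 and 1.55 in IMD010. HPODL_02362 (chromosome I, 895664 to 896308) had 184 and 291 FPKM in IMD010 at 0.025 per h and 57.0 to 85.7 FPKM in the other cultures, with changes of 0.03 and 1.48. HPODL_04325 changed by -0.22 in CBS11895 and 0.95 in IMD010. In these 3 genes the slow IMD010 cultures stood above the other 6, and the differences of 1.63 ± 0.32, 1.45 ± 0.35 and 1.17 ± 0.33 had an FDR of 0.764 each.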

How the data were processed

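Messenger RNA of 8 chemostat cultures was compared, in 4 groups of 2 assigned from the labels, of the 16 samples of the series. Libraries were strand-specific, from oligo(dT)-selected mRNA. Reads were aligned by the authors with STAR 2.5.3a to an assembly of strain DL-1, which is CBS11895. They removed reads with more than 1 position, counted them with HTSeq and deposited FPKM values per gene. The deposited FPKM values were whole multiples of 1 read within 0.05 reads for 100% of values, in 5400 of 5408 genes listed, while 8 genes were at 0 throughout. The number by which a gene's reads were divided was, for 90.7% of genes, the place of its length in an alphabetical list of lengths, not the length. FPKM were therefore rebuilt from the recovered reads with the length so decoded (5321 genes) or from the annotation (79 genes). This departs from the plan to use the deposited unit, and the deposited values as they are were kept as an alternative chosen after seeing the data.

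TMM factors (trims of 30% and 5%) were computed over all 16 samples. A gene needed a mean of 10 or more in any of the 4 groups, which removed 396 genes, and log2(FPKM + 1) was fitted on strain and rate with limma 3.58.1 in R 4.3.3. On this scale the fold changes of low genes are understated. Strain effects and the interaction came from a fit of 4 group means. The Benjamini-Hochberg adjustment of p-values ran over all 5004 genes. The fit on strain and rate was run on simulated counts in which all 8 libraries varied alike and no length trend was present. That run does not cover a library that stands apart or a length trend. Each group had 2 cultures, and each library 17272957 reads or more. Across genes, the SD of the log2 difference between replicates was 0.884 for IMD010 at 0.1 per h, against 0.114 to 0.25 in the other groups. What limited precision was not tested.

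Named genes were, among those called without overlap, the 8 largest rises and the 8 largest falls, the same among genes with a product name, up to 4 called members of each list and those needed to account for short lists, all essential complex I subunits and alternative dehydrogenases, and the 3 smallest p-values for a strain difference in each direction. Members and lists were chosen with earlier results of these data known. Lists used product names from a part of a supplementary table of the study, 1396 genes in all. Alternatives were other size factors, no TMM factors, a pseudocount of 0.1, no filter, voom weights, sample weights, a replicate block, 4 group means, all 16 samples or 1 strain in the fit, removal of a length trend (local regression, span 0.3) and omission of each culture. Added after seeing the data were omission of culture 1 of IMD010 at 0.1 per h together with the length trend, no TMM factors or other size factors.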

Additional observations from a re-analysis of the deposited data

Results flagged for a closer look

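Dixon's test at the 95% level was applied to 62 sets of 4 values, the 4 cultures of a rate over both strains, for the leading genes and for measures of the libraries, and it marked 9. Chance marks about 1 in 20 such sets. Culture 1 of IMD010 at 0.1 per h was set apart from the other 3 fast cultures by its TMM factor of 0.952 (the others 1.133, 1.146 and 1.17), by its median deviation of -0.583 for genes of at most 600 bp and by that of 0.284 for genes over 1200 and up to 2400 bp. In the same culture HPODL_01406 was low at 29.3 FPKM, sulfiredoxin (HPODL_00698) at 10.9 and the putative membrane protein HPODL_01995 at 7.19. Culture 2 of that group was high for HPODL_05007, at 610 FPKM. Culture 1 of CBS11895 at 0.025 per h was low for TOS4 (HPODL_00413), at 6.95 FPKM, and for the enhancer factor gene HPODL_00935, at 3.71.

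In 3 genes the slow and fast cultures lay in opposite order in CBS11895 and IMD010. Every slow culture of one strain was above its fast cultures, and every slow culture of the other strain was below. All 3 are among the genes named above for the smallest p-values of a strain difference. They were chosen by that difference, so the pattern is a description and not a count over all genes. The differences, IMD010 minus CBS11895, were -1.16 for glycine dehydrogenase (HPODL_01296), -2.82 for the potassium transporter (HPODL_01686) and 1.17 for HPODL_04325. The interaction term of limma, by which the genes had been chosen, gave each an adjusted p of 0.764.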

How the results depend on the processing

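The genes called over both strains numbered 1024 to 3517 when each culture was left out in turn, with the most calls without culture 1 of IMD010 at 0.1 per h. They numbered 2837 with all 16 samples in the fit and 3488 with sample weights, and without that culture 3446 with the length trend removed, 3537 without TMM factors and 3530 with median-of-ratios factors. Calls past the large-change thresholds numbered 0 to 27 with a culture left out, 14 with 4 group means, 13 with the length trend removed and 14 with both that and the culture left out. In CBS11895 the calls ranged from 2 to 3247 with a culture left out, and in IMD010 from 0 to 4171. For CBS11895 and IMD010 in turn there were 1007 and 1063 without TMM factors, 1469 and 2540 with all 16 samples, 3114 and 2 with sample weights, 3029 and 0 in a fit of 1 strain (875 IMD010 genes at an unadjusted p below 0.05), and, without the culture, 3091 and 2327 with the length trend removed, 3257 and 2408 without TMM factors and 3217 and 2462 with median-of-ratios factors. The interaction gave 0 calls with each other setting run, and 0 to 3456 with a culture left out. Where a group was left with 1 culture, that culture was assumed to vary like those of the other groups. The cause of these moves was not tested.

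No pairing by replicate number was assumed in the main fit. Correlations of deviations between same-numbered cultures ran from -0.391 to 0.334. They were positive within a rate, at 0.233 for 0.025 per h and 0.334 for 0.1 per h, and negative between rates. Those with IMD010 at 0.1 per h include the library that stood apart, so the correlations do not settle whether cultures are paired. With a replicate block there were 1721 calls over both strains, 14 past the large-change thresholds, 212 in CBS11895, 274 in IMD010 and 0 for the interaction.

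No named gene reversed while called. Of the 120 named genes called, 0 lost the call and 17 others gained one without culture 1 of IMD010 at 0.1 per h, and up to 39 lost it when another culture was left out. With no TMM factors 25.6% of the calls over both strains were higher, against 46.9% with them. These results are limited by having 2 cultures per group, and the spread between replicates was largest in IMD010 at 0.1 per h.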
